A study of Mus musculus with 2 samples.

Results

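Long intergenic non-coding RNA genes, called lincRNA genes here, were followed in brown adipose tissue of mice kept in the cold and of control mice. They were taken as the genes with the type lincRNA in the GENCODE mouse annotation, release M21, and at least 20 reads summed over both libraries. Of 7515 genes with that many reads, 42 were lincRNA genes. The annotation held 5854 lincRNA genes in all, of which 603 had at least 1 read. The members were thus chosen by their read counts, which are given below as a description. Just inside the minimum, at 20 reads, stood Bvht, Gm37494, Gm5113, Lppos and Snhg12. Just outside it, at 19 reads, stood A430046D13Rik, AW112010 and Gm30918, and H19 had 18.

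The RNA came from brown adipose tissue of the interscapular depot, a fat that burns fuel to make heat, of male wild type C57BL/6N mice of 20 weeks. The cold library was made from pooled RNA of 3 mice that were housed singly for 24 h at 4 °C. General housing was at 22 to 24 °C. The control library carries the treatment label ctrl, with no pool size in the sources used here. Both samples carry the same cold protocol text, which the ctrl label contradicts, and the extraction text speaks of eWAT, another fat depot than the labelled tissue. Markers of brown adipocytes were all present, 14 of 14 with at least 20 summed reads, with Ucp1, the uncoupling protein that makes heat, at 14860 control and 14526 cold reads. Each library was direct RNA sequencing of poly(A)+ RNA on a nanopore, in which single native molecules are read from the 3′ end without amplification. Total depth was 1698124 reads for the control and 1215617 for the cold library. Each group has 1 library and therefore no replicate spread, so the conditions could not be tested and p-values are left out. Ranges in parentheses are exact 95% intervals that cover counting error only, and they compare the libraries, not the conditions.

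A lincRNA is transcribed by RNA polymerase II from its own promoter between protein-coding genes, and is usually spliced and polyadenylated like a messenger RNA but not translated. Some stay at their site of transcription or build nuclear bodies, as Neat1 does in paraspeckles. Others act in the cytoplasm as decoys for microRNAs or RNA-binding proteins, and some are only the hosts from which small nucleolar RNAs are cut. In brown fat, cold acts through noradrenaline and cyclic AMP, and lincRNAs such as Lncbate1 are known to take part in the brown adipocyte programme.

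The 3′ ends are shown first, because the assay captures and reads each molecule from its poly(A) tail. The signal for cleavage and polyadenylation is usually AATAAA or ATTAAA within the last 50 bases, and is in capitals below. Sequences are the last 100 bases of the annotated transcript on GRCm38, read 5′ to 3′ on the gene's strand. The Neat1 short form ends at chr19:5842307-5842406 and its long form at chr19:5824708-5824807, both on the minus strand. Malat1 ends at chr19:5795690-5795789 (minus), 1700020I14Rik at chr2:119607403-119607502 (plus), 2900097C17Rik at chr2:156388065-156388164 (minus) and Lncbate1 at chr8:108553252-108553351 (minus). Also shown are ends of 3 members that differed by at least 2-fold between the libraries, 3930402G23Rik at chr8:10924427-10924526 (minus, higher in the cold library), AU020206 at chr7:75769038-75769137 (minus, lower) and 2310069B03Rik at chr6:82877864-82877963 (minus, lower).
Neat1 short form: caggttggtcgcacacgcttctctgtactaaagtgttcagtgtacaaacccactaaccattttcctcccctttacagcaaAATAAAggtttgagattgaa
Neat1 long form: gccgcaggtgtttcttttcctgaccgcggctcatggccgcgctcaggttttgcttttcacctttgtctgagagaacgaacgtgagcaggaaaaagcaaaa
Malat1: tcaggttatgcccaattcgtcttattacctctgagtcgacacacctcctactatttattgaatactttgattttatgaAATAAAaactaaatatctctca
1700020I14Rik: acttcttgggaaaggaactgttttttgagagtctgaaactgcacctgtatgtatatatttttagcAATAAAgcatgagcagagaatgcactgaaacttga
2900097C17Rik: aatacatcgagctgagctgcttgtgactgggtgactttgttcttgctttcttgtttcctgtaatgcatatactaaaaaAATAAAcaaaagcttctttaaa
Lncbate1: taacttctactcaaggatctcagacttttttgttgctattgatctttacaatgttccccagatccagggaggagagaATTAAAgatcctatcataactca
3930402G23Rik: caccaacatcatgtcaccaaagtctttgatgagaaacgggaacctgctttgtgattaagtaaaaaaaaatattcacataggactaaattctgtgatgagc
AU020206: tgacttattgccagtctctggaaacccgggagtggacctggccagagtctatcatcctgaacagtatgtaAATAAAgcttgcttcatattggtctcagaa
2310069B03Rik: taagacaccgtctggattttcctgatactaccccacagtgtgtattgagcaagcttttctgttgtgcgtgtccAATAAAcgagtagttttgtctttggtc

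The signal was present in 24 of 42 members by their most-read transcript, 57.1% (41.0 to 72.3), and 20 of the 24 had AATAAA. Among 559 lincRNA genes with 1 to 19 reads and a transcript of at least 200 bases the share was 55.1% (50.9 to 59.3). It was 40.1% (38.7 to 41.4) among 5173 lincRNA genes with no read and 81.1% (80.2 to 82.0) among 7346 protein-coding genes with at least 20 reads. Genes with reads were taken by their most-read transcript and genes with no read by their longest, so the sets are not measured alike. Over all 134529 annotated transcripts of that length it was 35.4%. A window of the same length that ended 100 bases before the end held the signal in 4.76% of the members. The interval of the members left out the share of the protein-coding genes and included that of the lincRNA genes with few reads. Transcripts with no such letters in this window include the long form of Neat1 and 3930402G23Rik, printed above, and AC160336.1, the most-read member, which is not printed. The 18 members without the signal held 66.2% of the members' control reads and 70.4% of their cold reads.

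**Figure D1:**
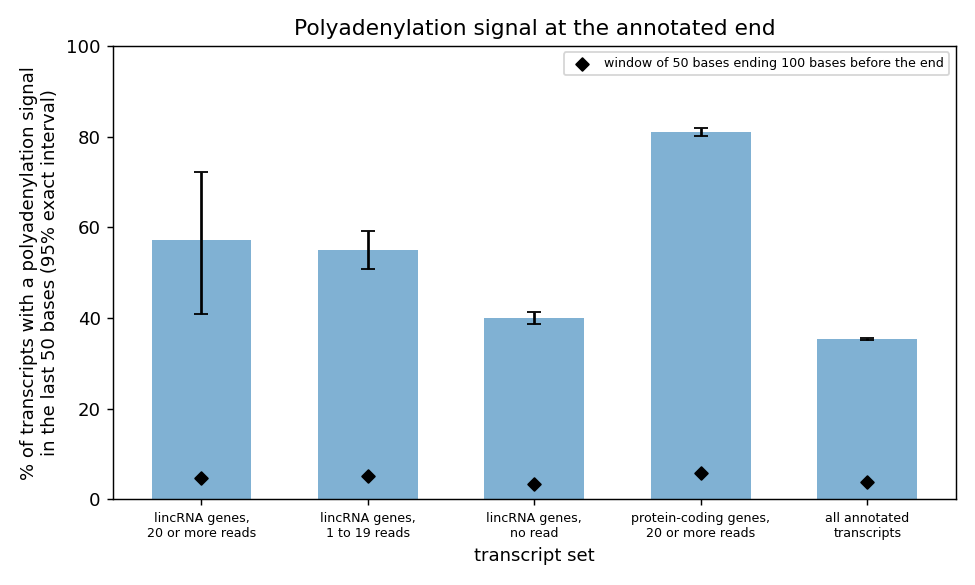
Share of transcripts with a polyadenylation signal in the last 50 bases, in % with 95% exact intervals, for 5 transcript sets. Genes with reads are taken by their most-read transcript and genes with no read by their longest. Diamonds give the share in a window of 50 bases that ends 100 bases before the transcript's end. The members stand at 57.1%, between the lincRNA genes with no read at 40.1% and the protein-coding genes at 81.1%, and every diamond lies near the bottom of the axis.

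The members made up a small part of each library. They held 2808 control reads, 0.165% of the library (0.159 to 0.172), and 2624 cold reads, 0.216% (0.208 to 0.224). The intervals of the shares did not overlap. These are shares of all reads, by which the median log2 cold to control ratio of all genes was also above 0, at 0.18. A single gene model, AC160336.1, held 34.3% of the control and 39.1% of the cold reads of the members. Without it, a comparison added after the data were seen, the shares were 0.109% and 0.132%. The 11 members with at least 100 reads held 72.5% of the members' control reads and 75.1% of their cold reads, while 20 members had 20 to 49 reads. The median sum was 55 reads, against 65 over all genes at the minimum.

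For the comparison of the libraries, counts were scaled by effective library sizes from edgeR's TMM method, which centres the ratios on the bulk of genes. A gene was counted as higher or lower in the cold library when its scaled counts were at least 2-fold apart and the counting interval left out a ratio of 1. By this rule 5 members were higher and 4 lower, 9 of 42 or 21.4%. Of all 7515 genes at the minimum, 8.25% met it in either direction, 4.18% higher and 4.07% lower. Among the 31 members of 20 to 99 reads 4 were higher and 3 lower, where 9.58% of all genes of that depth met the rule. Among the 11 members of at least 100 reads 1 was higher and 1 lower, against 5.84% of genes. At any fold, the interval lay above 1 for 9 members and below 1 for 6, 15 of 42, against 22.6% of all genes. So 55.6% of the counted members were on the higher side, a share that was 66.7% under scaling by total reads, which by itself moved the median log2 ratio of all genes to 0.18.

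As a group the members were close to even between the libraries. The ratio was above 1 for 19 members and below 1 for 23, and their median log2 ratio was -0.13, against 0.00069 over all genes tested and 0.0046 over protein-coding genes. This median was above 0 under scaling by total reads, at 0.05. The summed reads gave the other direction, with a cold to control ratio of 1.15 (1.09 to 1.22), and 1.07 (0.998 to 1.14) without AC160336.1. The 27 members whose interval included 1 ran from 0.411 for Snhg12 to 1.80 for Gm20300. The minimum acts on the sum, so a member near 20 reads passed mostly through the library where it was higher.

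Markers of another tissue moved with the libraries. Skeletal muscle markers summed to 771 control and 2499 cold reads. Scaled to library size these are 454 and 2056 RPM, the usual unit of depth-scaled reads. All 17 had reads, 15 of 16 measured ones were higher by the rule above, and their median log2 ratio was 2.23. Acta1, the actin of skeletal muscle, had 145 control and 550 cold reads. Lymphocyte markers summed to 6 control and 7 cold reads, and those without a read included Cd4 and Cd8a. Of the measured markers of endothelium, macrophages, fibroblasts, nerve and erythrocytes, 0 were higher or lower by the rule. In that order, their intervals lay above 1 for 3, 2, 1, 0 and 0, and below 1 for 0, 0, 1, 0 and 3. The part of muscle RNA in the ratios of the members was not tested. In pooled tissue RNA, fewer cells of a type and less RNA per cell cannot be told apart.

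**Figure D2:**
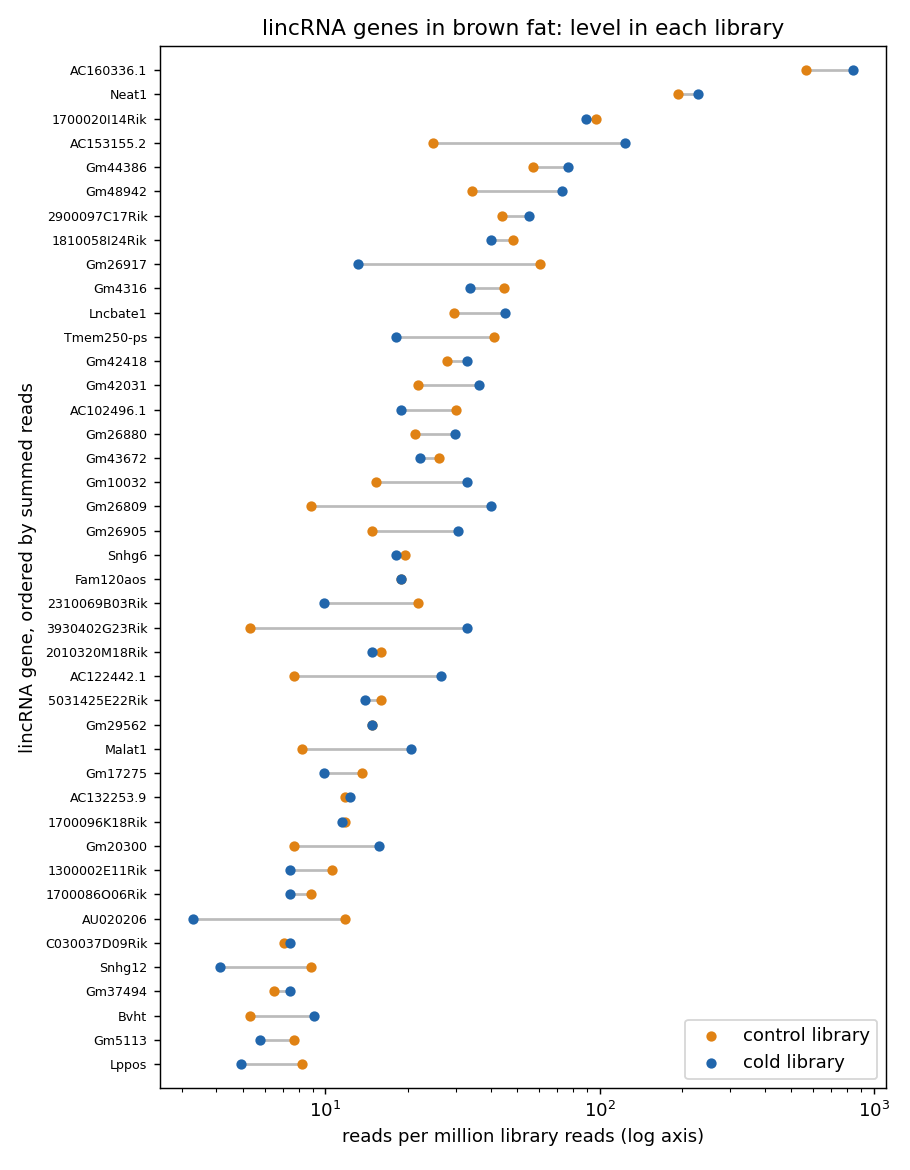
Library-size-scaled reads (RPM) on a log axis for each of the 42 lincRNA genes, with the control library in orange and the cold library in blue, ordered by summed reads. AC160336.1 and Neat1 stand furthest to the right in both libraries, and the longest lines belong to AC153155.2, Gm26917, Gm26809 and 3930402G23Rik.

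Among the lincRNAs of nuclear bodies, Neat1 was the most-read, and its interval included a ratio of 1. Neat1 is the RNA scaffold of paraspeckles and lies on chromosome 19 at 5824708 to 5845478. It had 327 control and 277 cold reads, a ratio of 1.04 (0.887 to 1.23), and was the second most-read member. Its long form of 20771 bases had 254 control and 207 cold reads, and its short form of 3004 bases had 72 and 70. The long form was thus assigned 77.7% of the control reads (72.8 to 82.1) and 74.7% of the cold reads (69.2 to 79.7). The difference was -2.95 percentage points (-9.80 to 3.82). Both forms share their 5′ part, and the polyadenylation signal at the end of the short form, printed above, begins 20 bases from the end. No such signal was found at the annotated end of the long form. Where its reads end cannot be read from counts per transcript. Whether they came from full long molecules was not tested, so these are shares of assigned reads. The sources used here do not give how reads matching both forms were assigned. Of 11 paraspeckle proteins on a fixed list, 9 had at least 20 reads and 0 were counted as higher or lower, among them Sfpq with 58 and 52 reads and Nono with 57 and 52.

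Malat1, the RNA of nuclear speckles, was scarce in both libraries and was the least different of the 5 members counted as higher. It lies next to Neat1 on chromosome 19, at 5795690 to 5802672. It had 14 control and 25 cold reads, a ratio of 2.20 (1.10 to 4.58). Neat1 had 327 control and 277 cold reads. Malat1 is known to end in a triple helix in place of a poly(A) tail in its mature form, and its annotated end, printed above, holds AATAAA beginning 22 bases from the end. Its exons overlap those of Gm27694 and Gm37376, so it was among the members removed in the setting without such overlaps, which does not examine its ratio. Of the other nuclear RNAs on the list, Tug1 had 37 and 24 reads, and Kcnq1ot1, an antisense RNA of an imprinted domain, had 12 and 1, under the minimum.

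Cytoplasmic lincRNAs with known binding partners were among the most-read members and were not counted as different. 1700020I14Rik, which RefSeq names Oip5os1 and which is also known as Cyrano, binds the microRNA miR-7. It had 165 control and 108 cold reads, a ratio of 0.807 (0.627 to 1.03), and its main form of 8300 bases took 89.1% and 89.8% of them. 2900097C17Rik, which RefSeq names Norad, is a decoy for Pumilio proteins. It had 75 control and 67 cold reads, a ratio of 1.10 (0.780 to 1.55). Of its 31-base words 44.7% also occur in transcripts of other genes, mostly Gm7292, so its count depends on how such reads were placed.

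The hosts of small nucleolar RNAs among the members, Snhg6 and Snhg12, had fewer reads in the cold library, within counting error. Snhg6 had 33 control and 22 cold reads, a ratio of 0.822 (0.457 to 1.45). Snhg12 had 15 and 5 reads, 0.411 (0.117 to 1.19). On the whole list of 23 small RNA hosts, 7 had at least 20 reads, 0 were counted as higher and 1 as lower, and their median log2 ratio was -0.58, against 0.00069 over all genes tested. The lower host was Mir22hg, the precursor gene of miR-22, which is no member, with 60 control and 22 cold reads and a value 2.21-fold lower (1.34 to 3.79). Gas5, another host, had 57 and 30 reads, 0.649 (0.403 to 1.03).

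Lncbate1, a lincRNA enriched in brown fat and required for the brown adipocyte programme, was well detected in both libraries. It had 50 control and 55 cold reads, a ratio of 1.36 (0.908 to 2.03). Its interval included 1, and the ratio of Ucp1 was 1.21 (1.18 to 1.23). Dio2, which makes active thyroid hormone in brown fat, had 59 control and 284 cold reads, 5.94-fold higher (4.47 to 8.0), while the adipocyte hormone gene Adipoq had 921 and 490, a ratio of 0.656 (0.587 to 0.733). Of the 14 brown adipocyte markers 3 were higher and 0 lower by the rule, with intervals above 1 for 7 and below 1 for 2. Bvht, known as Braveheart from work on the heart lineage, had 9 and 11 reads, 1.51 (0.568 to 4.11). Of 9 RNAs on the fat list 3 had at least 20 reads, 1 higher and 1 lower, with a median log2 ratio of -0.52. Ctcflos, an antisense RNA known from brown fat, had 41 control and 81 cold reads and was 2.44-fold higher (1.65 to 3.64). 4930402H24Rik, which the annotation classes as protein coding, had 105 and 59 reads, a ratio of 0.693 (0.495 to 0.962). 2310069B03Rik, the only member on this list, lies on chromosome 6 at 82877864 to 82881853. It had 37 control and 12 cold reads and was 2.50-fold lower (1.28 to 5.27).

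Of the 5 members counted as higher, 4 have no role known well enough to state here. 3930402G23Rik, on chromosome 8 at 10924427 to 10928696, had 9 control and 40 cold reads, 5.48-fold higher (2.62 to 12.8). Of these reads, 9 and 39 came from its form of 3086 bases. AC153155.2, on chromosome 18 at 61470225 to 61484607, had 42 control and 150 cold reads, 4.40-fold higher (3.11 to 6.36). It was the fourth most-read member. Its most-read transcript has 4 exons and 1808 bases.

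Gm26809, on chromosome 6 at 18844220 to 18847360, had 15 control and 49 cold reads, 4.03-fold higher (2.22 to 7.73). AC122442.1, a single-exon model on chromosome 19 at 46881495 to 46883439, had 13 control and 32 cold reads, 3.04-fold higher (1.55 to 6.30). It overlaps exons of the protein-coding gene Nt5c2 on the opposite strand, and Gm26809 overlaps Gm20186, so reads of these pairs may be hard to separate. Nt5c2, a nucleotidase, had 39 control and 20 cold reads, 0.632 (0.349 to 1.11), the other direction to AC122442.1. A further 4 members had an interval above 1 at less than 2-fold. They were Gm10032 with 26 and 40 reads (1.90-fold), Gm48942 with 58 and 89 (1.89-fold), Gm26905 with 25 and 37 (1.83-fold) and AC160336.1. Of the 31-base words of Gm26905, 93.0% also occur in transcripts of other genes, which makes its count uncertain.

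AC160336.1 had the most reads of all members and a small difference with a narrow counting interval. It had 962 control and 1025 cold reads, a ratio of 1.31 (1.20 to 1.44). Its log2 ratio of 0.39 depended on the scaling. It was 0.57 under total reads and 0.53 under total reads free of mitochondrially encoded genes, both outside that interval. Its model on chromosome 14, at 44544055 to 44637201, is a single exon of 93147 bases. The model holds 4 runs of at least 10 A and no polyadenylation signal in its last 50 bases. Gm44386, whose model has 429 bases, had 97 control and 93 cold reads. Each read is a single molecule, so these counts were not divided by length. The model of AC160336.1 overlaps exons of 5 other genes, among them Gm5624 and Gm8247, which had 0 reads. Of its 31-base words 12.6% occur in transcripts of other genes. Where on the model the reads lie cannot be read from counts per transcript.

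**Figure D3:**
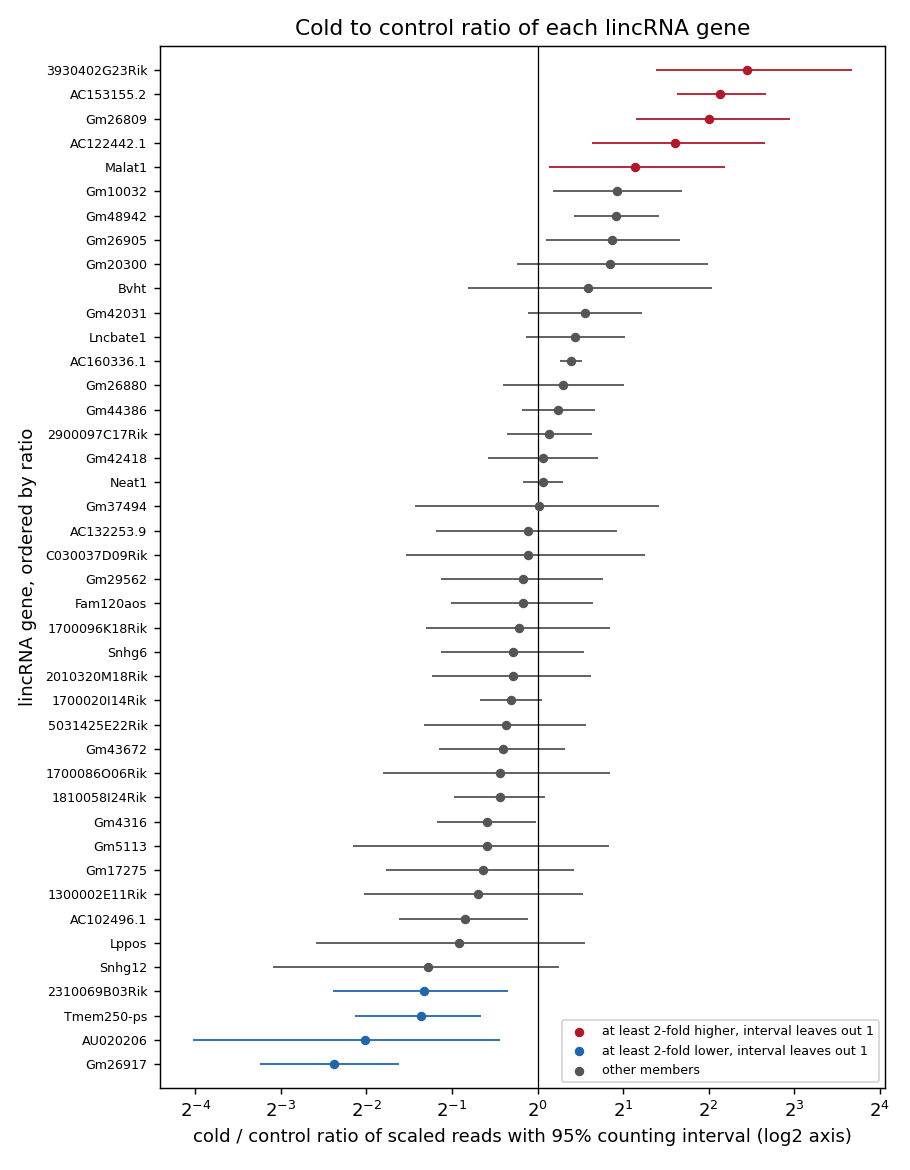
Cold to control ratio of scaled reads on a log2 axis with its 95% counting interval for each lincRNA gene, ordered by ratio. The 5 members in red are at least 2-fold higher and the 4 in blue at least 2-fold lower with an interval that leaves out 1, and most other intervals cross the line at a ratio of 1.

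Among the 4 members counted as lower, Gm26917 stood furthest apart. It lies on chromosome 17 at 39843013 to 39846341, beside other genes on copies of ribosomal RNA sequence. It had 103 control and 16 cold reads, 5.22-fold lower (3.07 to 9.47). Its neighbours there did not share the direction. Gm42418, a member that RefSeq lists as Rn18s-rs5, a pseudogene of the small ribosomal RNA, had 47 and 40 reads, 1.05 (0.671 to 1.63). AY036118, a lincRNA gene under the minimum, had 6 and 7 reads. The rRNA gene CT010467.1, which overlaps Gm42418 on the opposite strand, had 60 control and 83 cold reads, 1.71 (1.21 to 2.42).

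AU020206, on chromosome 7 at 75769038 to 75782099, had 20 control and 4 cold reads, 4.05-fold lower (1.36 to 16.3), the widest interval of the 9. Tmem250-ps, on chromosome 2 at 26136814 to 26140521, had 70 control and 22 cold reads, 2.58-fold lower (1.58 to 4.38). RefSeq lists Tmem250-ps as protein coding, and its exons overlap those of 1810012K08Rik. Below 1 at less than 2-fold were AC102496.1 with 51 and 23 reads (a ratio of 0.556) and Gm4316 with 76 and 41 (a ratio of 0.665). Of the 31-base words of AC102496.1 57.8% are shared with transcripts of other genes, and 5 members in all shared over 50%.

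1810058I24Rik is classed differently by the annotations. RefSeq lists it as protein coding, and it is known to encode a small mitochondrial peptide. It had 82 control and 49 cold reads, a ratio of 0.737 (0.506 to 1.06). Its 3 forms with reads took 53.7%, 29.3% and 17.1% of its control reads and 65.3%, 18.4% and 16.3% of its cold reads. Of the 42 members 27 were found in RefSeq at the same place, 23 of them as lncRNA and 3 as protein coding.

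**Figure D4:**
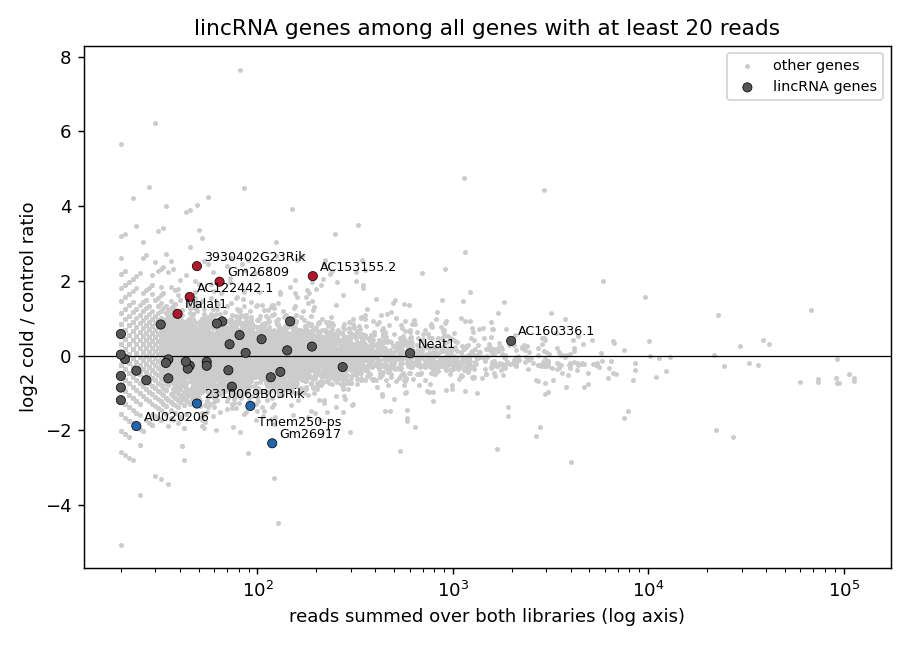
Log2 cold to control ratio against the reads summed over both libraries on a log axis, for all genes with at least 20 reads in grey and the 42 lincRNA genes as larger points. Most lincRNA genes lie at the left, where ratios of all genes spread widely, and AC153155.2 and Gm26917 are the members of over 100 reads furthest from 0.

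Gene structure differed widely among the members. They lie on 17 chromosomes, and the most-read transcript had 1 exon in 14 members and several in 28. Its length ran from 429 to 93147 bases with a median of 1886. Reads fell on 1 annotated transcript in 29 members and on several in 13. For 29 members under 5% of the 31-base words were shared with other genes, and 14 had an exon that overlapped an exon of another gene. Of the members with several forms, 6 had at least 20 reads in each library, and in 0 of them did the interval of the difference of any form's share leave out 0. The widest gap among the 6 was that of the main form of 1810058I24Rik, at 11.6 percentage points (-5.78 to 27.6).

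A minority of the members start close to the start of a protein-coding gene on the other strand. The start of 8 of 42 members, 19.05%, lay within 1000 bases of such a start, against 17.1% of 561 lincRNA genes with 1 to 19 reads and 4.08% of 5251 with no read. The 8 partners were Tbl1xr1, Fam120a, Pik3r2, Kmt2e, Dele1, Msi2, Zfp146 and Lpp. Of the 8 members 0 were counted as higher or lower, where 8.25% of all genes were, so 8 are too few to read a difference from. Fam120aos, whose start lies 270 bases from that of Fam120a, had 32 and 23 reads, a ratio of 0.886 (0.495 to 1.56). Fam120a itself had 141 and 119, a ratio of 1.04.

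Promoters bear on the cold response because CREB, the factor that cyclic AMP activates, binds TGACGTCA, and binds the shorter TGACG more weakly. RefSeq promoters of GRCm38.p6, 250 bases before to 50 after the start, were at hand for 20 of the members. TGACGTCA was found in 2 of them, 1300002E11Rik and C030037D09Rik, against 1.79% of 32851 promoters. TGACG on either strand, which lies within the longer motif, was found in 9 of 20, against 20.8% of all. The 4 promoters printed here are that of C030037D09Rik, which holds the full motif (chr11:88718393-88718692, plus), those of Malat1 (chr19:5802623-5802922, minus) and AU020206 (chr7:75782071-75782370, minus), which differ in direction and both hold the short motif, and that of 3930402G23Rik (chr8:10928408-10928707, minus), the member with the highest ratio. Capitals mark the motifs on either strand.
C030037D09Rik: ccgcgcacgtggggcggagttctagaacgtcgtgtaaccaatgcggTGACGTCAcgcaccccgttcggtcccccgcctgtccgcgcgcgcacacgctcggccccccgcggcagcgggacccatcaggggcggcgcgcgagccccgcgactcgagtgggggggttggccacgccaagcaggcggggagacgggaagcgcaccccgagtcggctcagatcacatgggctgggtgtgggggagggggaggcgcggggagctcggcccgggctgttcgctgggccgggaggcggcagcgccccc
Malat1: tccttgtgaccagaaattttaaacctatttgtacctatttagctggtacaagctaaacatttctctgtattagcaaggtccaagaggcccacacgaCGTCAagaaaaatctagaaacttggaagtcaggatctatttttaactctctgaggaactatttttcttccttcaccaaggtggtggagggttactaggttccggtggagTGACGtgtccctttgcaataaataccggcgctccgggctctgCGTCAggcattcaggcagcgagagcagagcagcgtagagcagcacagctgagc
AU020206: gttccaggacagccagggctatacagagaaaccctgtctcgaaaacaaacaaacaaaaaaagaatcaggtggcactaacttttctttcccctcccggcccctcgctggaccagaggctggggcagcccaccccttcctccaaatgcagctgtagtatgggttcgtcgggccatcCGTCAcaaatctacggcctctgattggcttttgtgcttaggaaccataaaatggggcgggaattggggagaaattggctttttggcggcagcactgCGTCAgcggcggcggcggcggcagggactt
3930402G23Rik: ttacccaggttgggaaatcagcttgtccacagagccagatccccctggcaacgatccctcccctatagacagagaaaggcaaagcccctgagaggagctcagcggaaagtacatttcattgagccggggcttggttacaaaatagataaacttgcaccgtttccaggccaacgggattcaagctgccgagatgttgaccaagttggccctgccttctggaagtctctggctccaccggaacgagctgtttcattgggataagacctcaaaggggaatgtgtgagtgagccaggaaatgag

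The short motif was present beside a higher ratio in Malat1 and beside a lower one in AU020206, and these letters were not in the window of 3930402G23Rik. That window follows the RefSeq start, 239 bases from the annotated start used for the counts, and so lies mostly within the gene. The RefSeq starts of 5031425E22Rik, Tmem250-ps, Gm4316 and Gm37494 are 933, 978, 7307 and 8096 bases from the annotated ones. C030037D09Rik, with the full motif, had 12 control and 9 cold reads, 0.925 (0.344 to 2.39). 1300002E11Rik, the other member with it, had 18 and 9 reads, 0.617 (0.244 to 1.45). A match is a description of letters and not a binding site.

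The share of nearest protein-coding genes that met the rule was near that of all genes. Such a gene lay within 50000 bases of 38 members and overlapped 11 of them, and 19 of these neighbours had at least 20 reads. Of the 19, 1 was counted, near the 8.25% of all genes, and 0 of them stood in the same direction as a counted member. The 1 was Nacc2, a transcriptional repressor 13594 bases from Tmem250-ps on the same strand, with 30 control and 50 cold reads, 2.06-fold higher (1.28 to 3.35), while Tmem250-ps was lower. The neighbours' median log2 ratio was 0.01. Beyond that distance, 55985 bases from 3930402G23Rik, lies Irs2, which carries the signal of the insulin receptor. It had 10 control and 29 cold reads, 3.58-fold higher (1.69 to 8.23), the same direction as the lincRNA.

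The nearest coding genes of the other counted members described here had intervals that included 1 or a sum under the minimum. Arhgef37, 7050 bases from AC153155.2 on the same strand, had 1 control and 17 cold reads. Its ratio of 20.96 (3.28 to 876) was in the same direction as that of AC153155.2, but its sum was under the minimum, so it is not among the 19. Lsm8, 1219 bases from Gm26809, had 18 and 18 reads, 1.23 (0.605 to 2.51). Akap13, the nearest to AU020206, had 31 and 18. Sema4f, the nearest to 2310069B03Rik, had 1 and 0 reads.

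**Figure D5:**
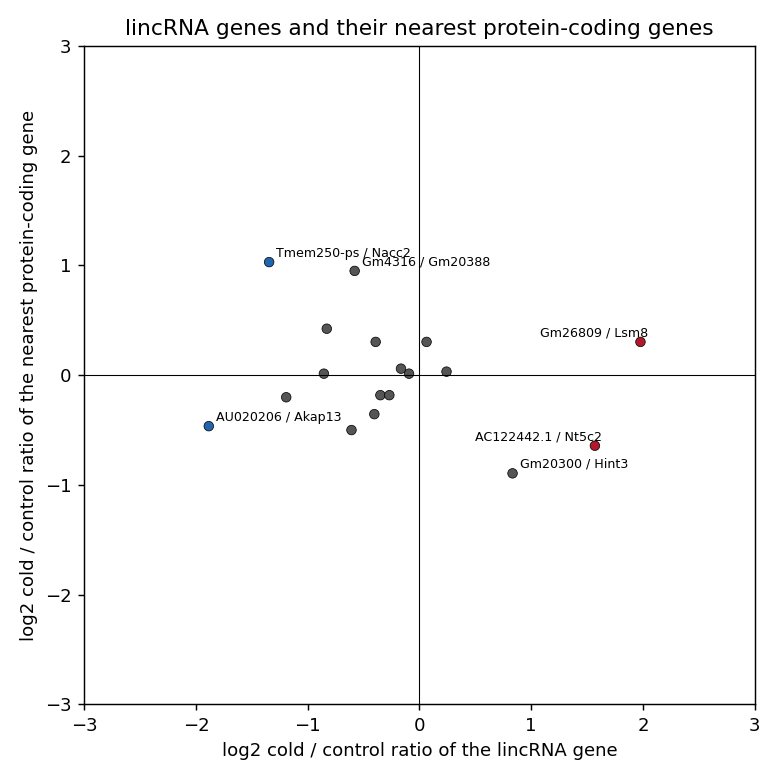
Log2 cold to control ratio of the nearest protein-coding gene against that of the lincRNA gene, for members other than Malat1 whose neighbour lies within 50000 bases and has at least 20 reads. Red and blue points are members counted as higher and lower. Tmem250-ps and Nacc2 lie in the upper left, in opposite directions, and the neighbour of Gm26809 lies near 0.

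Genes of the other long non-coding classes (antisense, processed transcript, bidirectional promoter, sense intronic and sense overlapping) gave 67 with at least 20 reads. Of these 1 was higher and 8 lower, with a median log2 ratio of -0.33, and their difference from the lincRNA genes was not tested. Processed transcripts had 0 higher and 4 lower of 30, with a median of -0.50. Among 17 proteins that form RNA 3′ ends or degrade nuclear RNA, 15 had at least 20 reads, and 1 was higher and 0 lower. It was Exosc7, a subunit of the RNA exosome, with 5 control and 17 cold reads, 4.19-fold higher. Of 8 writers and readers of the RNA mark m6A, 5 were measured and 0 were counted.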

How the data were processed

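Per the labels' protocols, oligo(dT) beads selected the RNA in consecutive rounds and 500 ng went into each direct RNA library. The files deposited by the authors hold whole-number read counts per transcript, not normalized, with no transcript at 0 listed. The submitters' processing notes name minimap2 and GRCm38. Not given in the sources used here are the aligner version, the annotation release and the treatment of reads that match several transcripts.

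Transcripts were joined by identifier to GENCODE M21 (GRCm38) and summed to genes. No gene was found for 75 control and 79 cold transcripts (0.0571% and 0.0652% of reads), which stayed in the library sizes. All 73 transcripts of the members matched. Ratios used TMM effective sizes (edgeR 4.0.16 in R 4.3.3), log2 ratios a prior of 0.5 reads, and intervals the exact Clopper-Pearson method (scipy 1.17.1) at 95%. Differences of shares have Newcombe intervals. The ratios and calls were tested on simulated counts with known changes. Those counts held counting error only, so the test does not cover spread between mice or libraries. Gene names, promoters and starts came from RefSeq tables on GRCm38.p6, matched by name and overlap.

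The members and lists were chosen with earlier results of these data known. Named were the 10 most-read members, the members with the highest and lowest ratios whose interval left out 1 (up to 12 each), members on the fixed lists, the nearest coding neighbours of such members, and listed genes past 2-fold. Genes sharing a start, a sequence or a locus were named for that, after their values were seen, as were Ucp1, Acta1, Sfpq, Nono, Gas5, Tug1 and CT010467.1. Some single-gene values are not reported here.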

Additional observations from a re-analysis of the deposited data

How the results depend on the processing

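No paired analysis was possible because each group has 1 library and the labels give no replicate numbers. The 5 higher and 4 lower members were kept under the 3 other scalings and with the most abundant transcript alone. The most abundant transcript alone added Gm10032, so that 6 of 38 members were higher. Without the ribosomal repeat genes 5 were higher and 3 lower of 40, as Gm26917 is among the genes removed. Members counted as higher numbered 8 under total reads and under total reads free of mitochondrially encoded genes (adding Gm10032, Gm26905 and Gm48942), 8 at a fold of 1.5 and 8 at a minimum of 1 read. They numbered 2 and 1 at minimums of 50 and 100 reads, and 2 without members whose exons overlap another gene. In these settings fewer genes are tested, and the members no longer counted were those removed. Members counted as lower numbered 2 and 1 at 50 and 100 reads. The median log2 ratio of -0.13 was 0.049 under total reads and 0.0015 under total reads free of mitochondrially encoded genes. Both scalings shift all genes alike, and the median of all genes became 0.18 and 0.13. At minimums of 50 and 100 reads the members' median was 0.11 and 0.14, and the cause was not tested. Of all genes, 520 were higher and 188 lower under total reads, against 314 and 306. The members' shares were 0.283% and 0.340% of reads free of mitochondrially encoded genes and their chromosome 1 copies. The control share was 0.157% without the ribosomal repeat genes. Without AC160336.1, an alternative chosen after seeing the data, the shares were 0.109% and 0.132%. Counted neighbours numbered 0 of 16 within 10000 bases and 2 of 20 within 100000. Of 210 values of single genes under other settings 208 stayed within their interval, and the log2 ratio of AC160336.1 was 0.57 and 0.53 under both total scalings. Another scaling shifts all log2 ratios alike, by less than most intervals are wide. The 208 therefore say little about how firm the values are. Depth limits most members: the median distance from the log2 ratio to its bound was 0.87, and it was 0.13 for AC160336.1.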

Other observations

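Most lincRNA genes with reads were seen only a few times. Of the 603 with a read, 282 had a single read and 561 had 1 to 19. In the control library 449 were detected and in the cold library 396, with 242 in both, while the 42 members were detected in both.

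A few values lie outside the named comparisons and were picked after they were seen. The second-nearest coding gene to Neat1, Slc25a45, a mitochondrial carrier 32330 bases away, had 4 control and 16 cold reads, 4.93-fold higher (1.59 to 20.3). The second-nearest to Lppos, the repressor gene Bcl6, lies 402760 bases away and had 32 and 55 reads, 2.12-fold higher (1.35 to 3.39). Kmt2c, a histone methyltransferase near 1700096K18Rik, had 21 and 4 reads and a ratio of 0.235 (0.0586 to 0.696). Ehhadh, an enzyme of peroxisomal fatty acid oxidation near 1300002E11Rik, had 167 control and 243 cold reads, 1.79-fold higher (1.47 to 2.20). In 1700086O06Rik, 1 form took 1 of 15 control and 5 of 9 cold reads, a difference of 48.9 percentage points (11.9 to 75.0). These numbers are small and the gene was below the depth set for comparing forms.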
